A study of Mus musculus with 12 samples.

Results

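Presynaptic active zone scaffold genes were followed in total RNA of the mouse hippocampus. The group was set by gene name, as Bsn, Pclo, Rims1, Rims2, Rims3, Unc13a, Unc13c, Erc1, Erc2 and Ppfia3. These 10 genes are among 54532 genes in the deposited tables, and they hold 76 of 137862 annotated transcripts. The 12 libraries came from mice aged 3 months, with 3 libraries for each combination of genotype (control or Atrx-cKO, a conditional knockout of Atrx) and sex. ATRX is a chromatin remodelling protein, and the title of the series places its deletion in neurons. The Cre line, the deleted exons, the alleles carried by the controls and the strain were not stated in the material used here. The RNA is that of the whole tissue sample, labelled as hippocampal cells, so other cells than neurons contributed to it.

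The active zone is the patch of presynaptic membrane where synaptic vesicles dock, are primed and fuse when calcium enters. Its scaffold is built from a few families of mostly large proteins. Bassoon and piccolo (Bsn, Pclo) span the cytomatrix, and MUNC13 proteins (Unc13a, Unc13c) prime vesicles for fusion. The RIM proteins of Rims1 and Rims2 tie vesicles to calcium channels, and Rims3 encodes a short RIM form. ELKS proteins (Erc1, Erc2) and liprin-α (Ppfia3) bind these partners together. In bulk tissue, fewer neurons and less RNA per neuron cannot be told apart.

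The title of the series also names miR-137, a microRNA known for targets among presynaptic genes. Its mature sequence and the sites for it in the scaffold genes are shown to make that link visible at the level of the transcripts. The mature sequence is from RefSeq on GRCm38.p6 (chr3:118433901-118433923, plus strand). Capitals mark the seed, bases 2 to 8 of the microRNA, and, in the 3′ UTR stretches from GENCODE M21 transcripts, the 7 bases AGCAATA that match it.
mmu-miR-137-3p: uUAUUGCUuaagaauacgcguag
Bsn: aaacgttgatttagaAGCAATAg
Rims3: caccagctctgtaccAGCAATAc
The Bsn stretch lies in the 3′ UTR at chr9:108098902-108098924 on the minus strand. The Rims3 stretch lies in the 3′ UTR at chr4:120892548-120892570 on the plus strand. In the coding transcript with the longest 3′ UTR of each gene, 2 of the 10 scaffold genes held AGCAATA on the transcript strand. Of 10808 tested genes with an annotated 3′ UTR, 11.2% held it. Among tested genes whose 3′ UTR was within 20% of the length of that of Bsn (3983 bases), 25.8% held it, and the share was 29.5% at the length of Rims3 (5072 bases). Over the lengths of all 10 scaffold genes this share ran from 6.31% (Ppfia3) to 29.6% (Unc13a). The count of 2 among 10 is therefore not read as a link to miR-137. A match describes letters only, and the mature microRNA was not analysed here.

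The scaffold genes are long. Their span on the genome had a median of 313 kb, against 14.9 kb for the 15141 genes tested, and ran from 27.9 kb for Ppfia3 to 856 kb for Erc2. The union of their exons had a median of 10.1 kb against 3.36 kb, with 22.5 kb for Pclo as the highest. Promoter sequences of RefSeq on GRCm38.p6 (250 bases before to 50 after the start) matched 9 of the 10 genes. They held between 6 CpG dinucleotides (Unc13c) and 46 (Erc1), and the median of all 32851 promoters was 7. Unc13c was the only matched member below that median.

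Depth and background differed between libraries. Mapped sequence ran from 1.16 to 8.64 Gb. Background, taken as the median level of 1437 olfactory and vomeronasal receptor genes in the same library, ran from 0.00664 to 0.0278 on the FPKM scale in control males and from 0.0176 to 0.286 in cKO males. It was 0.0867 to 0.602 in control females and 0.307 to 2.25 in cKO females, so that the background of every control female lay above that of every control male. Values below are therefore given in a pair of forms. The deposited FPKM (fragments per kilobase of transcript, scaled to the depth of the library) is summed over a gene's transcripts. The exon density is the sequence assigned to a gene per base of its exons on the FPKM scale, less the background of the library and scaled between libraries; it is the quantity that was tested. Atrx itself was lower in every cKO library: among females its exon density was 12.0 ± 0.680 in controls and 6.33 ± 0.554 in cKO, and among males 10.1 ± 0.0737 and 7.19 ± 1.16 (SD, n = 3 each).

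Exon density, a level per length, placed Rims1 and Erc2 on top of the group. Over the 12 libraries Rims1 averaged 29.8 ± 6.19 and Erc2 29.0 ± 2.81 (SD, n = 12), and Rims1 was above Erc2 in 6 of the 12. Next came Ppfia3 at 16.9 ± 0.791, Rims2 at 15.5 ± 2.70 and Unc13a at 14.4 ± 3.31. Ppfia3 exceeded Rims2 in 8 libraries and Rims2 exceeded Unc13a in 7, so that these neighbours were not separated by more than their spread. Pclo followed at 10.4 ± 2.95, below Unc13a in all 12 libraries, and Bsn at 6.35 ± 2.12, below Pclo in all 12. At the lower end, Unc13c stood at 5.19 ± 1.77 and Erc1 at 4.44 ± 0.519, with Unc13c the higher in 7 libraries. Rims3, a short RIM form without the zinc finger of Rims1 and Rims2, was near background at 0.557 ± 0.926. Its mean was under the limit of 1 used for testing, which left 9 of the 10 genes for tests. They passed that filter in all 4 groups of libraries, not through 1 group alone.

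**Figure D1:**
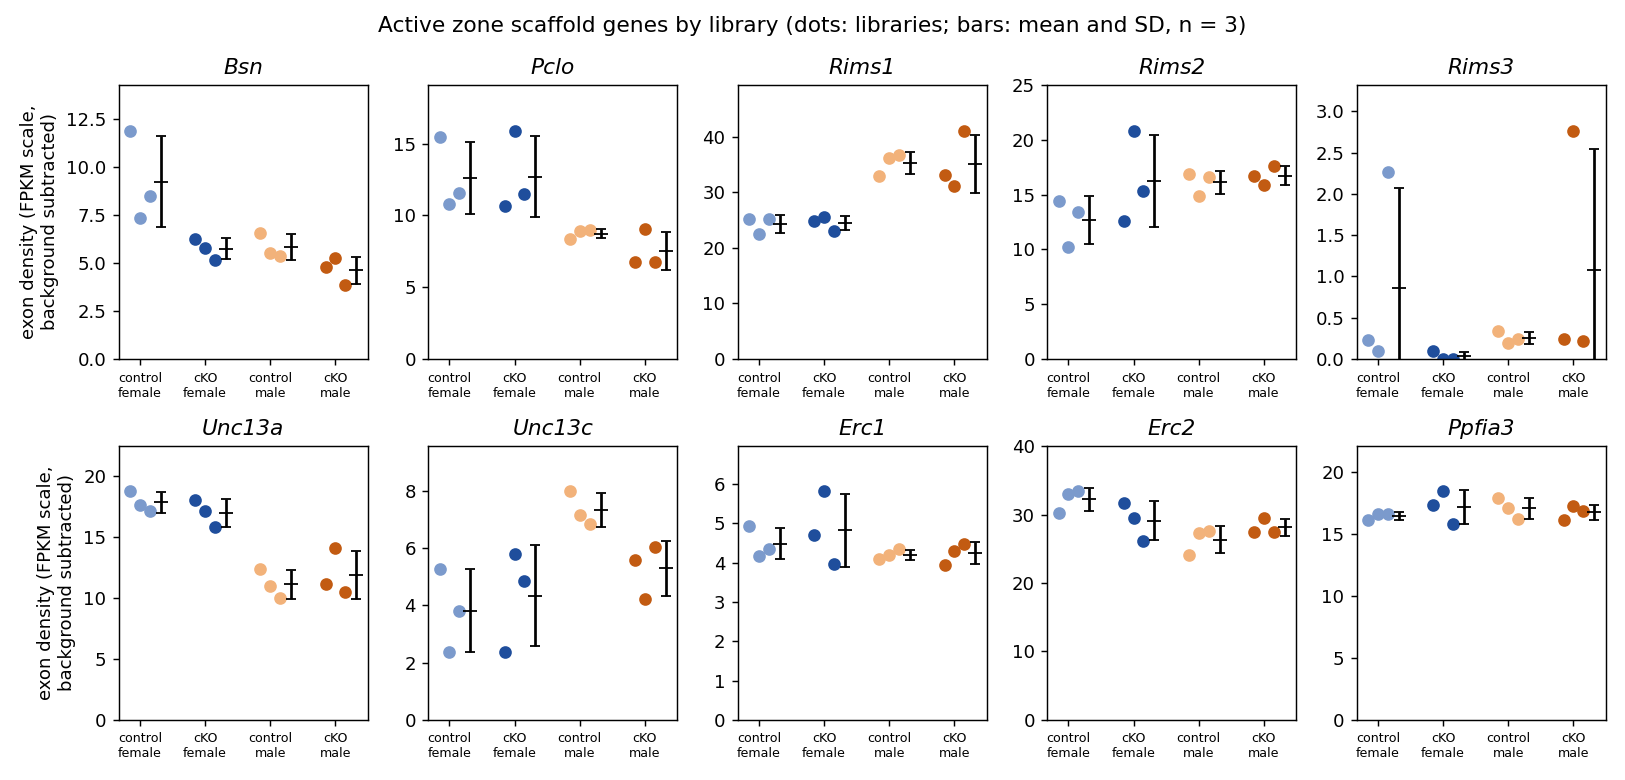
Exon density (FPKM scale, background subtracted, vertical axis from 0) of the 10 scaffold genes in the 12 libraries; dots are single libraries, bars are group means with SD (n = 3). The male libraries of Rims1 (31.1 to 41.1) all lie above the female ones (22.4 to 25.5), and the reverse holds for Unc13a.

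The first question of the design was whether the loss of Atrx changed these genes in females and in males. In exon density Bsn was the only member lower in all cKO libraries of both sexes, but no member passed the test in either sex. The median log2 difference of the 9 tested genes was 0.01 in females and −0.02 in males, beside 0.02 and 0.03 over all genes tested. With limma over all 15141 genes and Benjamini-Hochberg adjusted p under 0.05, 0.0727% of genes were called in females and 0.0066% in males, so few calls were made anywhere. In the mean of both effects 0.033% of genes were called, and 0% in their difference. At an unadjusted p under 0.05 there were 4465 genes in females, 345 in males and 953 in the difference. Of the members, 1 (Bsn) was at that level in females and none in males.

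Bsn (chr9:108096022-108190384, minus strand, GRCm38.p6) encodes bassoon, which organizes the cytomatrix together with piccolo. Among females its deposited FPKM was 13.9, 8.41 and 11.5 in controls 1 to 3 and 7.06, 5.76 and 5.48 in the 3 cKO. Among males, controls had 7.58, 5.86 and 6.38, and cKO had 5.43, 5.86 and 4.52. The female groups did not overlap on this scale, which carries no scaling between libraries beyond depth. Among males, cKO male 2 matched control male 2 at the precision of these values. The exon density of Bsn among females was 11.9, 7.33 and 8.47 in controls and 6.24, 5.78 and 5.16 in cKO. Male values were 6.58, 5.51 and 5.37 in controls and 4.77, 5.24 and 3.86 in cKO. On that scale every cKO library lay below every control of its sex, which 0.918% of all tested genes also did (7.62% in females and 4.58% in males taken alone). The log2 difference was −0.62 in females (SE 0.169, 95% interval −0.99 to −0.25, limma adjusted p = 0.113) and −0.31 in males (SE 0.169, interval −0.68 to 0.07, adjusted p = 1). The mean of both effects was −0.46 with an adjusted p of 0.223, and their difference, male minus female, was 0.31 with an interval from −0.22 to 0.84 (adjusted p = 0.592). The Bsn effect is thus neither called nor shown to differ between the sexes. Leaving out cKO female 1 moved the adjusted p to 0.0191 in females and 0.0170 for the mean, while the number of genes called in females rose from 11 to 5788.

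Piccolo, encoded by Pclo (chr5:14514918-14863459, plus strand), is the close relative of bassoon. Among females its deposited FPKM was 24.8, 16.8 and 16.1 in controls and 15.6, 15.9 and 13.3 in cKO. Male controls had 13.9, 12.7 and 13.4, and male cKO libraries 10.6, 15.7 and 10.5. All cKO females were thus below all control females in deposited FPKM, which carries no scaling between libraries beyond depth. The factors that scale exon density were 0.655 and 0.627 in cKO females 2 and 3, and 1.01 to 1.15 elsewhere. The share of all genes separated in this way on deposited FPKM was not determined. In exon density the female groups overlapped, with 15.4, 10.8 and 11.6 in controls and 10.7, 15.9 and 11.5 in cKO. Pclo showed log2 differences of 0.00 in females (95% interval −0.38 to 0.38, adjusted p = 0.991) and −0.22 in males (−0.60 to 0.16, adjusted p = 1). The highest cKO female value, 15.9, came from the shallowest library.

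The RIM proteins of Rims1 and Rims2 are the scaffold's link to vesicle-bound RAB3 and to calcium channels. Rims1 (chr1:22286251-22805994, minus strand) had log2 differences of 0.01 in females (95% interval −0.21 to 0.24) and −0.02 in males (−0.24 to 0.21), the values nearest to 0 among the RIM genes. Rims2 (chr15:39198261-39684372, plus strand), which encodes RIM2, had female exon densities of 14.4, 10.2 and 13.4 in controls and 12.6, 20.8 and 15.4 in cKO. These groups overlapped, and the log2 difference was 0.33 (SE 0.169, adjusted p = 0.214). Without cKO female 1 the adjusted p became 0.0329 for Rims2 as well. In males Rims2 ranged from 14.9 to 16.9 in controls and from 15.9 to 17.6 in cKO, a log2 difference of 0.05 with an interval from −0.32 to 0.43.

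In exon density, Rims3 (chr4:120854816-120896579, plus strand) stood out in 2 libraries only. Its exon density was 0.34 or less in 10 libraries, 2.26 in control female 3 and 2.77 in cKO male 2. Those 2 libraries belong to different sexes and genotypes. In both of them the deposited FPKM sat on the 8-exon transcript ENSMUST00000106283, with 3.38 and 3.74, while the 6-exon transcript ENSMUST00000171363 was listed at 0. In the other 10 libraries the 8-exon transcript had at most 0.299 and the 6-exon transcript between 0.352 and 2.69. The miR-137 match of Rims3 printed above lies in the 3′ UTR of the 8-exon form. The summed deposited FPKM of Rims3 was highest in cKO female 2, at 5.26. It was 4.55 in cKO male 2, 4.02 in control female 3 and 3.36 in cKO female 3. Before subtraction the exon density of cKO females 2 and 3, 1.11 and 0.836, lay below their background, so it was set to 0. Rims3 was not tested, and its mean exon densities in control females and cKO males rest mostly on 1 library each.

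MUNC13 proteins carry out the priming step. Unc13a (chr8:71624417-71671757, minus strand), which encodes MUNC13-1, the main form of forebrain excitatory synapses, had log2 differences of −0.07 in females (95% interval −0.32 to 0.19) and 0.09 in males (−0.17 to 0.34). Unc13c (chr9:73479422-73968966, minus strand), which encodes MUNC13-3, is best known from the cerebellum. Its exon density among females was 5.26, 2.38 and 3.79 in controls and 2.37, 5.79 and 4.86 in cKO, which overlap broadly. Male controls had 7.98, 7.16 and 6.85, and male cKO libraries 5.59, 4.23 and 6.05. Unc13c was therefore lower in every cKO male than in every control male, which 4.58% of tested genes were too. Its male log2 difference was −0.45 (SE 0.301, 95% interval −1.11 to 0.22, adjusted p = 1), and the difference between the sexes was −0.59 with an adjusted p of 0.584. Unc13c also had the widest spread of the tested members, with a coefficient of variation within groups of up to 40.7%. The summed level of 5 cerebellar granule markers was 3.90 to 4.69 in control males and 3.76 to 4.50 in cKO males, and 1 of the 5 was high enough to be tested.

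The last 3 members bind the others into the scaffold. Erc2 (chr14:27622428-28478537, plus strand), which encodes the synaptic ELKS protein CAST, had log2 differences of −0.15 in females (95% interval −0.34 to 0.05) and 0.10 in males (−0.10 to 0.29). Erc1 (chr6:119570796-119848167, minus strand), which encodes the more widely expressed ELKS, had 0.08 in females (−0.19 to 0.36) and 0.01 in males (−0.27 to 0.29). Ppfia3 (chr7:45339122-45367019, minus strand), which encodes liprin-α3, had 0.06 in females (−0.10 to 0.22) and −0.03 in males (−0.19 to 0.13). These intervals leave room for changes of the sizes they span. Ppfia3 was the steadiest member, with a coefficient of variation within groups between 1.81% and 7.80%.

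**Figure D2:**
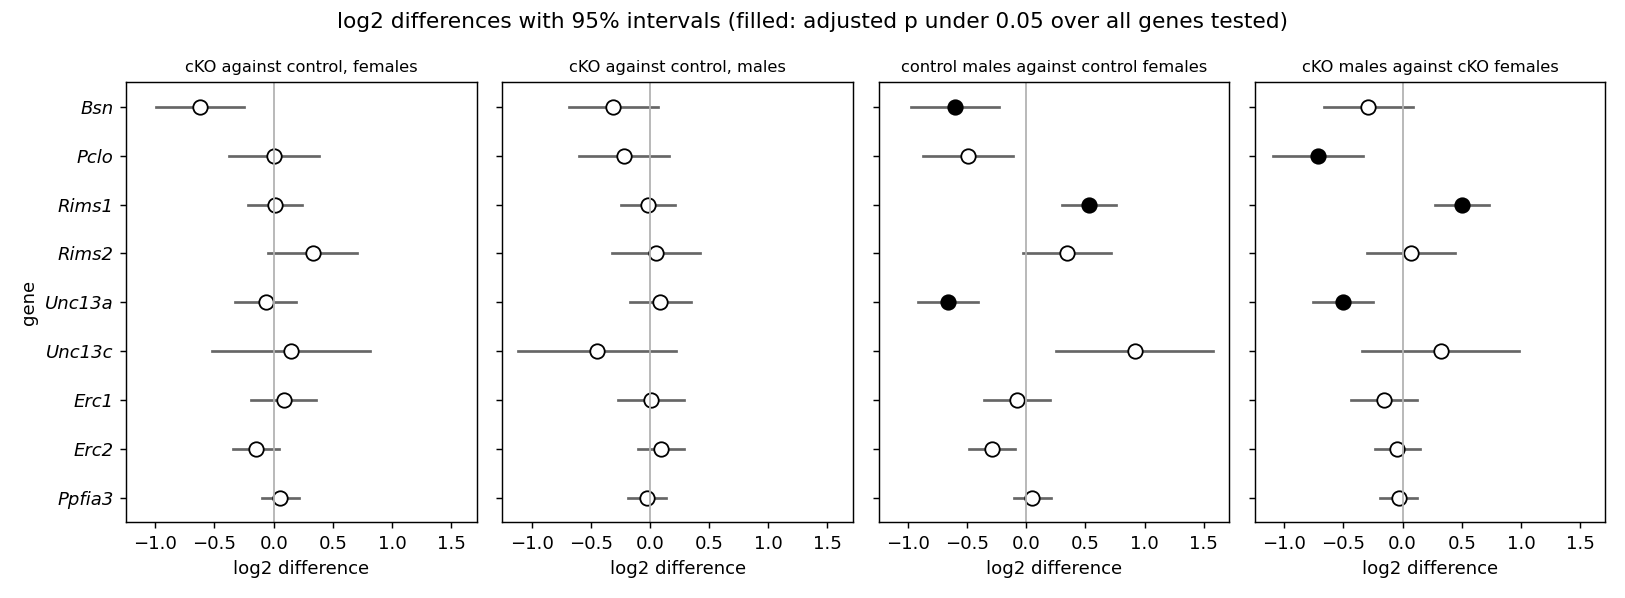
The log2 differences (horizontal axis) of the 9 tested scaffold genes in 4 comparisons, with 95% intervals as lines; filled symbols passed an adjusted p of 0.05 over all 15141 genes. No symbol is filled for cKO against control, and 3 are filled in each comparison of males with females.

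The same libraries allow control males to be compared with control females, and here members differed in both directions. Rims1 was higher in control males, Unc13a and Bsn were lower, and the other 6 tested members did not pass. In this comparison 12% of all genes were called, 5.73% as higher and 6.25% as lower, so 3 calls among 9 genes stand beside a broad background of differences. The median log2 difference was −0.08 over the members and −0.11 over all genes. Every control female had a higher background than every control male, so sex and this property of the libraries cannot be told apart in these samples. The sexes are also compared across different mice only, and no label gives a batch.

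Rims1, the RIM1 gene, had deposited FPKM of 52.0, 43.0 and 55.3 in control females and 74.1, 60.4 and 66.2 in control males. The cKO libraries had 56.7, 46.0 and 36.2 (females) and 60.6, 56.5 and 71.0 (males). Control males thus lay above control females, and in cKO female 1 just exceeded male 2. In exon density, control females had 25.3, 22.4 and 25.1 and control males 33.0, 36.1 and 36.7. The cKO females had 24.9, 25.5 and 23.1 and the cKO males 33.0, 31.1 and 41.1. All 6 males were above all 6 females on this scale, as were 8.36% of tested genes. The log2 difference between control males and control females was 0.53 (SE 0.103, limma adjusted p = 0.0103). In the comparison of cKO males with cKO females, added after seeing the data, it was 0.50 (adjusted p = 0.00782), where 38.8% of all genes were called.

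Unc13a went the other way. Among controls its deposited FPKM was 35.7, 33.7 and 30.6 in females and 20.7, 20.03 and 18.8 in males. Among cKO libraries it was 33.9, 31.4 and 21.8 in females and 21.95, 26.9 and 19.6 in males. In exon density, control females had 18.7, 17.6 and 17.1 and control males 12.4, 10.99 and 9.96. The cKO females had 18.0, 17.1 and 15.8 and the cKO males 11.1, 14.1 and 10.4. All 6 males were below all 6 females in exon density, as were 10.2% of tested genes, whereas in deposited FPKM cKO female 3 overlapped with the males. The log2 difference was −0.66 in controls (SE 0.115, adjusted p = 0.00685) and −0.51 in cKO (SE 0.115, adjusted p = 0.0106). Rims1 and Unc13a thus differed in opposite directions between the sexes. Unc13c, also a priming gene, went the way of Rims1 in controls (log2 difference 0.92) without passing (limma adjusted p = 0.0752). Rims1 and Unc13a each kept their sign in all alternatives of the control comparison, and passed the test in 21 of 24 and 23 of 25 of them.

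The log2 difference of Bsn between control males and control females was −0.60 (SE 0.169, adjusted p = 0.0430). This call was lost in 13 of 25 alternatives, among them without control female 1, the highest library, where the value was −0.41 (adjusted p = 0.139). Between cKO males and cKO females Bsn differed by −0.29 (95% interval −0.66 to 0.08, adjusted p = 0.189). Its relative Pclo had exon densities of 8.37, 8.89 and 8.95 in control males and 6.73, 9.02 and 6.78 in cKO males, all below the lowest female value of 10.7. Pclo differed by −0.49 in controls, which did not pass (adjusted p = 0.0926), and by −0.71 in cKO, which did (adjusted p = 0.0127). On the deposited FPKM scaled over genes above 0 in all libraries, without subtraction, the control differences were −0.09 for Bsn, 0.15 for Pclo and −0.09 for Unc13a, and 1.07 for Rims1, none of them past the test. This alternative changes the quantity, the scaling and the subtraction together. With the subtraction alone left out, the control values were −0.60 for Bsn, −0.48 for Pclo, −0.64 for Unc13a and 0.56 for Rims1, and the calls were those given above. The cKO males and cKO females were also compared on the deposited FPKM scaled over genes above 0, without subtraction. Pclo then had 0.80 (adjusted p = 0.0344) and Unc13a 0.79 (adjusted p = 0.0592), opposite in sign to the values above. In exon density without cKO females 2 and 3, the libraries of highest background, 1 cKO female was left. The values were then −0.50 for Pclo, 0.47 for Rims1 and −0.60 for Unc13a, and none passed (adjusted p = 0.210, 0.128 and 0.0977).

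The remaining members did not pass between the sexes. Unc13c had the largest difference in controls, 0.92 on the log2 scale (95% interval 0.25 to 1.58, adjusted p = 0.0752), with control females at 2.38 to 5.26 and control males at 6.85 to 7.98. Erc2 was at −0.29 (adjusted p = 0.0579), with control females at 30.3 to 33.4 and control males at 24.1 to 27.7. Control groups did not overlap for 3 members that were higher in males (Rims1, Rims2, Unc13c) and 4 that were lower (Bsn, Pclo, Unc13a, Erc2). Of all tested genes, 18.6% and 30.8% were separated in these directions. Rims2, Erc1 and Ppfia3 had differences of 0.35, −0.08 and 0.05, with adjusted p of 0.220, 0.715 and 0.678.

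Markers of other cells differed with sex in the controls as well, where 5.73% of all genes were called higher in males and 6.25% lower. Of 5 astrocyte markers, 3 (Aldoc, Aqp4, Gfap) were higher in control males, and their summed level was 304 to 360 there against 208 to 215 in control females. Of 5 oligodendrocyte markers, 2 (Mbp, Mobp) were higher, with sums of 484 to 610 against 247 to 342. Among neuronal markers, Wfs1 and Lct among 5 CA1 pyramidal markers, Prox1 among 5 dentate granule markers, and Gad1 and Gad2 among 6 interneuron markers were lower in control males. The summed CA1 markers were 18.6 to 29.4 in control males and 32.3 to 44.6 in control females. None of the tested markers of CA2 and CA3 (4 of 6), microglia (5 of 5), endothelial and mural cells (5 of 5) or choroid plexus (4 of 5) passed between controls. No gene of these lists was at 0 in all libraries. The part of cell composition in the differences of Bsn and Unc13a, and of Rims1 in the opposite direction, was not tested. In the comparison of cKO with control, no gene of the marker lists passed in either sex. Choroid plexus markers varied within groups, from 9.70 to 5195 as a sum in control females, and from 1216 to 3599 in control males.

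Transcripts of the scaffold genes were then examined one by one. Of their 76 annotated transcripts, 29 held at least 10% of their gene's FPKM on average, and 7 of these were listed at 0 in at least 1 library. Bsn had the simplest make-up. The 12-exon coding transcript ENSMUST00000035208 held 94.1% on average and was on top in all 12 libraries. Among females its FPKM was 12.9, 8.41 and 7.15 in controls and 7.06, 5.76 and 5.48 in cKO. The lowest control and the highest cKO library were thus close, and the transcript's log2 difference after scaling was −0.09 in females (adjusted p = 0.788), where the median over all transcripts tested was 0.80. A second, 8-exon transcript (ENSMUST00000124763) had 4.34 in control female 3 and at most 0.931 elsewhere.

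Unc13a was held mostly by a pair of coding transcripts, the 44-exon ENSMUST00000030170 with a mean share of 49.5% and the 45-exon ENSMUST00000177517 with 36.1%. The latter was between 8.31 and 15.9 FPKM in 10 libraries and at 0.0334 in cKO female 2 and 0.124 in control male 1. The gene's total in those 2 libraries, 31.4 and 20.7, was within the range of the others of their sex. For Rims1, the 14-exon ENSMUST00000097808 held 37.0%, and the 32-exon ENSMUST00000097809 22.3%. The 32-exon form ran from 4.50 to 10.99 FPKM in all 6 females and from 12.8 to 22.2 in all 6 males. The 31-exon ENSMUST00000115273 was also apart, at 2.24 to 7.32 against 7.49 to 10.6. After scaling, neither of these 2 transcripts passed between controls (limma adjusted p = 0.201 and 0.468). The FPKM given here carry no scaling between libraries beyond depth. The share of all transcripts separated in this way was not determined. The 14-exon form overlapped between the sexes (11.5 to 29.6 against 15.6 to 38.1).

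Other members had different leading transcripts in different libraries. Ppfia3 totals lay between 21.5 and 39.7 FPKM, yet 4 different transcripts were on top. ENSMUST00000211067 had 26.3 in control male 3 and at most 1.94 in the other libraries, and ENSMUST00000210248 had 28.8 in control male 1 against 0.518 in control male 3. For Pclo all 4 annotated transcripts were on top in some library, led by the 25-exon ENSMUST00000030691 with a mean share of 46.1%. Within groups, the leading transcripts of Ppfia3 had a median coefficient of variation of 87.1%, against 4.23% for the exon density of the gene. For Erc1 these values were 64.5% and 7.72%, and for Pclo 52.5% and 18.6%.

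Erc1 contained a coding transcript that was listed at 0 in a whole group. The 19-exon coding ENSMUST00000032279 had 2.39, 3.90 and 0 FPKM in female controls and was listed at 0 in all 3 female cKO libraries. Male controls had 3.83, 3.65 and 2.55, and male cKO libraries 1.93, 3.75 and 1.15. Its share of the gene differed by −12.3 percentage points, cKO minus control, on average over the sexes (exact two-sided permutation p = 0.04, adjusted p = 0.370 over 18140 shares of all genes). The 4 libraries at 0 are also the 4 of highest background among females, 0.307 to 2.25; their part in this was not tested. Rims2 had a 3-exon transcript, ENSMUST00000228839, with a difference of −3.56 points (exact permutation p = 0.02, adjusted p = 0.345). For the 44-exon Unc13a transcript the difference was −7.77 points, −1.66 in females and −13.9 in males, with the smallest p the exact permutations can give, 0.005 (adjusted p = 0.307), which 1.63% of all shares had. None of the 26 member shares passed after adjustment, nor did any of the 18140 tested, 0% in all. The permutations give no p below 0.005, and too few shares had it, so no single share could pass this adjustment. At an unadjusted p under 0.05 there were 3 of 26 member shares and 12% of all shares. With limma on single transcripts without background subtraction, no member transcript was called in any comparison, against 0.0983% of 44771 transcripts in females, 0.0112% in males, 0.0536% in the mean of both, 0.0313% in their difference and 0.911% between control males and females. Transcript values were scaled by the factors of the genes, and these fits were not centred on 0. Over all transcripts tested, the median log2 difference was 0.80 in females, 0.16 in males and 0.48 in the mean. It was −0.69 in the difference and −0.39 between controls. The absence of calls therefore cannot show that member transcripts were unchanged. Without cKO female 1, 16 of 47 member transcripts were called in females, 10 in the mean and 11 in the difference, beside 61.5%, 55.3% and 46.3% of all transcripts tested.

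**Figure D3:**
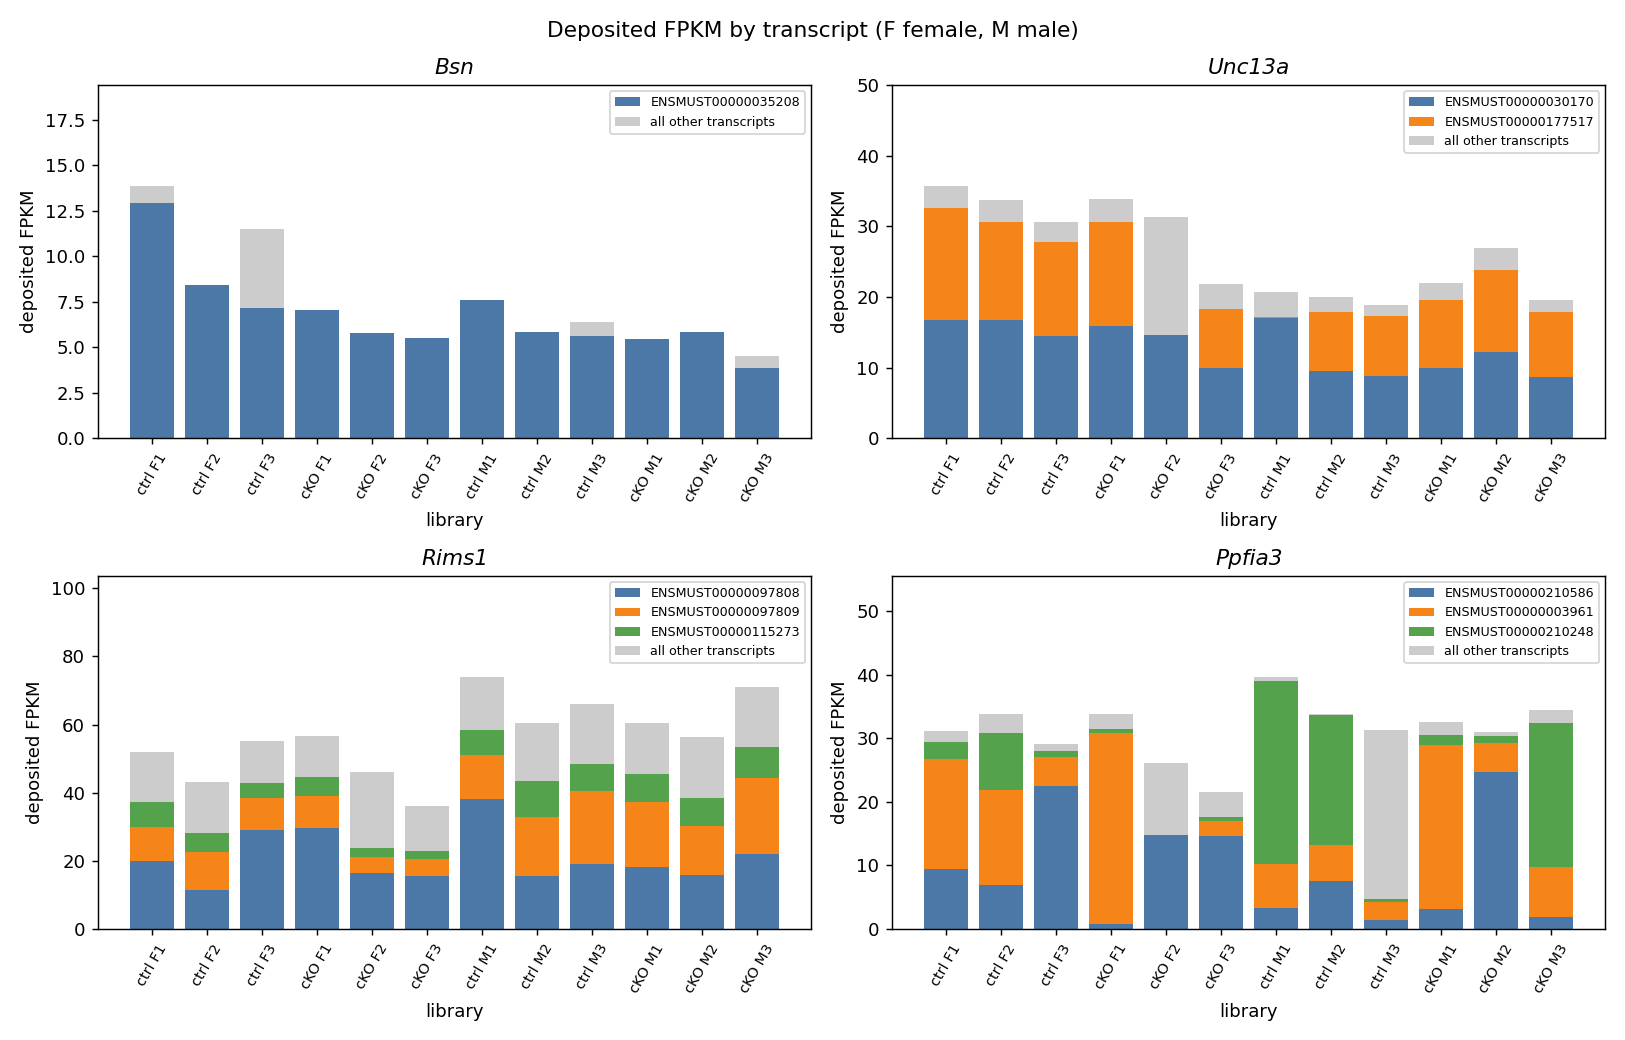
Deposited FPKM (vertical axis from 0) of 4 scaffold genes in each library, split by annotated transcript; grey is the sum of transcripts that hold under 10% on average. Bsn rests on 1 transcript in most libraries, whereas Ppfia3 changes its leading transcript between libraries of the same group.

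The wider machinery of the active zone gives a frame for these values. Of 8 paralogs of the scaffold genes (such as Rims4, Unc13b and Ppfia2), 7 were tested, and none passed in either sex between cKO and control. Rims4, a short RIM relative of Rims3, had the smallest p among them in the mean of both sexes, with −0.34 on the log2 scale (adjusted p = 0.223). Between controls, where 12% of all genes were called, 1 of the 7 was called, Ppfia2 (liprin-α2), lower in males by 0.40 (adjusted p = 0.0208). Ppfia2 had 31.8 ± 1.73 in control females and 24.1 ± 2.21 in control males (SD, n = 3), where its relative Ppfia3 had 16.4 ± 0.297 and 17.1 ± 0.850.

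Active zone partners are proteins that bind the scaffold, such as RIM-binding protein, RAB3 and neurexins. Of 29 listed, 27 were tested and none passed between cKO and control in either sex, with 21 of 27 mean effects below 0 beside 46.9% of all genes. The median of the mean effects was −0.08, beside 0.02 over all genes. Over genes averaging 5 or more it was −0.008, with 52.4% below 0. Rimbp2, which bridges RIMs and calcium channels, was at −0.31 (adjusted p = 0.223), Rph3a (rabphilin) at −0.26 (adjusted p = 0.232), Rab3b at −0.55 (adjusted p = 0.241) and Nrxn2 at −0.66 (adjusted p = 0.257). Between controls 6 of the 27 were lower in males and none higher, where 6.25% of all genes were called lower and 5.73% higher. The 6 were Apba2, Mycbp2, Nrxn3, Ptprs, Rab3gap1 and Rimbp2, singled out after their values were seen. Nrxn3, a presynaptic adhesion molecule, had 14.2 ± 0.746 in control females and 8.38 ± 0.621 in control males (SD, n = 3; log2 difference −0.73, adjusted p = 0.00286).

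Calcium channels and fusion proteins of the release site form the last list. Of 20, 19 were tested, and none passed between cKO and control in either sex. All 19 mean effects lay below 0, from −0.42 to −0.01, with a median of −0.15, beside 46.9% of all genes and a median of 0.02. Among the 6311 genes averaging 5 or more, 52.4% were below 0, with a median of −0.008. All tested markers of interneurons (6), astrocytes (5), microglia (5) and choroid plexus (4) were below 0 in the mean effect too. Vamp2, the vesicle SNARE, was at −0.37 (adjusted p = 0.223), and Cplx2, a complexin, at −0.15 (adjusted p = 0.223). In this list 3 genes were lower in control males, namely the calcium channel Cacna1e, the SNARE regulator Stxbp5 and the calcium sensor Syt1, and none was higher. Of all genes, 6.25% were called lower in that comparison and 5.73% higher. Syt1 had 137 ± 13.7 in control females and 83.2 ± 5.48 in control males (SD, n = 3; log2 difference −0.71, adjusted p = 0.00681). Rims1 was thus the 1 gene of the members, paralogs and these lists that was called higher in control males.

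**Figure D4:**
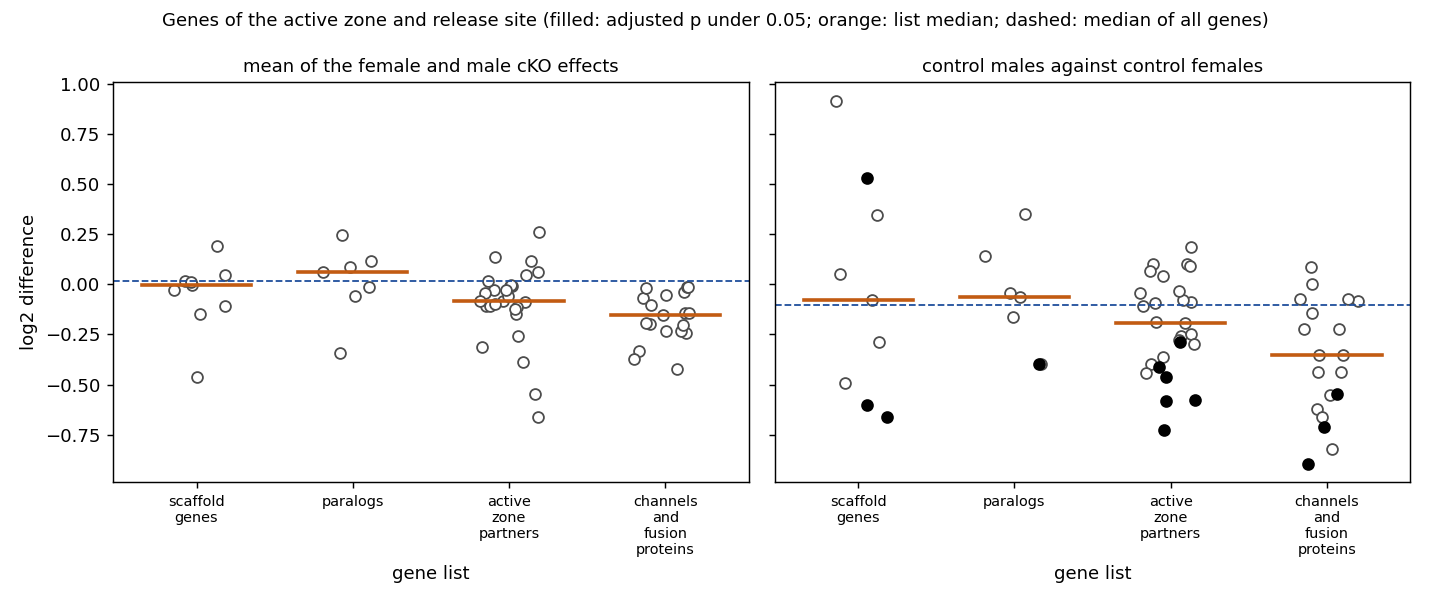
The log2 difference (vertical axis) of each tested gene of 4 lists; filled dots passed an adjusted p of 0.05, orange bars are list medians and the dashed line is the median of all genes. In the mean cKO effect no dot is filled, and between controls Rims1 is the filled dot above 0.

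The members did not follow a shared course over the libraries. The correlation of each with the mean of the other 8, on log2 values over all 12 libraries, ran from −0.45 for Rims1 to 0.84 for Erc1; these points share depth and background. Outside the group, the genes most like the mean of the members over 12 libraries were Nipbl (Pearson r = 0.86), R3hdm2 (0.85), Eml1 (0.81), Lysmd2 (0.81) and Gnao1 (0.80). Over the 6 male libraries they were Spast (0.99), Atp6v0a2 (0.99), Abhd6 (0.98), Dkk3 (0.98) and Gsk3b (0.97). The male libraries have lower background than the female ones, apart from cKO male 2 (0.286). These r are the highest of many genes on 6 points. Among males, the correlation of each member with the others ran from −0.51 for Erc2 to 0.42 for Ppfia3. No gene was among the first 5 in both rankings.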

How the data were processed

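Libraries of 12 samples were analysed from the tables the authors deposited, which give coverage and FPKM for each annotated transcript. Alignment was by HISAT2 2.0.4 against GRCm38.p6, with StringTie for quantification, per the submitters' processing notes. Whether strand was used, and which annotation release, is not given in the sources used here. In the deposited tables FPKM was a constant multiple of coverage within a library, and mapped bases were recovered from that ratio; they hold no read counts. Exon density is coverage times length, summed per gene and divided by the union of its exons in GENCODE M21, on the FPKM scale. The median over receptor genes of the library was subtracted (floor 0). Scaling was by median-of-ratios over genes averaging 5 or more, and the genes tested averaged 1 or more with 1 or more in 3 libraries.

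On log2(value + 0.5), which understates folds of low genes, limma 3.58.1 (R 4.3.3, trend and robust) fitted 4 group means over all 12 libraries. Two-sided p-values were adjusted by Benjamini-Hochberg over all 15141 genes, with a threshold of 0.05. Transcript shares were compared by exact two-sided permutation within both sexes. The fits were also run on simulated data whose spread was taken from control males. That run cannot show how they behave at the depth and background of the cKO females. The members and lists were chosen with earlier results of these data known. Up to 4 other genes per list were named by the smallest p in the mean of both effects; genes named from other counts were chosen after their values were seen. Some genes that this rule names are not reported here. The labels tie no library to a mouse, so p-values measure the spread between these libraries. Genes that overlap others or share sequence with paralogs are uncertain.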

Additional observations from a re-analysis of the deposited data

How the results depend on the processing

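On deposited FPKM scaled over genes above 0 in all libraries, without subtraction, which changes 3 choices at once, the cKO difference in females was −1.03 for Pclo, −0.85 for Rims1, −0.68 for Rims2, −0.62 for Unc13c, −0.38 for Erc1 and −0.93 for Ppfia3, none past the test. In males it was −0.24 for Rims2, −0.056 for Unc13a, −0.12 for Erc1 and −0.14 for Erc2. Between control males and females the difference was 0.15 for Pclo, 0.46 for Erc1 and 0.18 for Erc2, with 1 member called beside 106 genes in all. Between cKO males and females it was 0.80 for Pclo and 0.79 for Unc13a, both called as negative in the reported fit. There 8 members were called beside 26893 genes in all. With subtraction from summed FPKM, the female values were −0.20 for Pclo, 0.011 for Unc13a, −0.29 for Unc13c and −0.0055 for Ppfia3, and Rims2 had −0.0080 in males. With the subtraction alone left out of exon density, Pclo had −0.044, Rims1 −0.11 and Ppfia3 −0.027 in females. Between cKO males and females 5 members were then called, beside 13164 genes in all. Quantile normalization gave −0.094 for Pclo, −0.027 for Rims1, −0.091 for Unc13c, −0.15 for Erc1 and −0.011 for Ppfia3 in females and −0.011 for Erc1 in males. All of these values have signs opposite to those reported. Those of cKO against control belong to members that had not passed, and the cause was not tested.

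The transcript with the most exons alone gave −0.53 for Ppfia3 in females, and −0.51, −0.029 and 0.67 for Rims2, Erc1 and Ppfia3 in males. It gave −0.044 for the difference of the Bsn effects and −1.64 for Ppfia3 between controls. There 0 members were called, beside 700 genes in all. Between cKO males and females this alternative gave 1.14 for Unc13a. Array weights called 1 member in the mean effect (Bsn, adjusted p = 0.0355) beside 3573 genes in all, and 7 between controls beside 5201, with −0.049 for Erc1 in males. A mean of at least 5 called 5 members between controls, and the number called over all genes is not given here. Separate fits within each sex gave −0.0019 for Pclo in females.

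Without cKO females 2 and 3, the libraries of highest background, the female values were −0.21 for Pclo, 0.023 for Unc13a and −0.53 for Unc13c. Then 6 members were called between controls beside 3457 genes in all, and 2 member transcripts beside 3.05% of transcripts. Between cKO males and females, with 1 cKO female left and assumed to vary like the other groups, 0 members were called, at −0.50 for Pclo, 0.47 for Rims1 and −0.60 for Unc13a. Without the 3 libraries of background above 0.5, an alternative added after seeing the data, they were −0.26 for Pclo, −0.50 for Unc13c and 0.0095 for Erc2. Between cKO males and females 0 members were called, again with 1 cKO female left, at −0.50 for Pclo, 0.47 for Rims1 and −0.60 for Unc13a.

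Leaving out 1 library at a time gave 0 to 2 members called in females, 0 to 1 in the mean effect and 1 to 5 between controls. Genes called in all ran from 1 to 5788, 3 to 4465 and 556 to 2907 in these comparisons. The highest of each came without cKO female 1. For single members in females, leaving out 1 library gave −0.16 to 0.15 for Pclo, −0.041 to 0.058 for Rims1, −0.12 to 0.49 for Unc13c and −0.041 to 0.21 for Erc1. In males it gave −0.029 to 0.056 for Erc1, −0.063 to 0.0067 for Ppfia3, −0.0021 to 0.088 for Rims2, −0.14 to 0.063 for Rims1 and −0.036 to 0.17 for Unc13a. Called member transcripts ran from 0 to 16 in females, 0 to 10 in the mean, 0 to 11 in the difference and 0 to 1 between controls. The highest counts of the first 3 came without cKO female 1, beside 61.5%, 55.3% and 46.3% of all transcripts tested. The 1 between controls came without cKO female 3, beside 1.27%. No member share passed in any of its 13 alternatives, but exact permutations of so few libraries cannot give a very small p. Bsn kept its negative sign in all 26 alternatives in each sex.

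The submitters' design text mentions 3 pairs, and no label says which libraries form one. Deviations of same-numbered libraries from their group means correlated at 0.16, −0.31 and 0.38 in females and 0.04, −0.09 and 0.19 in males. Differently numbered ones correlated at −0.51 to 0.48 in females and −0.26 to 0.16 in males. With 3 libraries per group, these values cannot decide whether the replicate numbers of the titles mark pairs. With the replicate block, Bsn between controls had an adjusted p of 0.0568, 2 members were called there, and the number of genes called was 767 in place of 1814. The block left 0 genes called in females, in males and in the mean effect, in place of 11, 1 and 5. Over all alternatives, genes called ran from 0 to 5788 in females, 0 to 18 in males, 0 to 4465 in the mean, 0 to 2923 in the difference, 106 to 5201 between controls and 40 to 26893 between cKO males and females. The depth of cKO female 2, 1.16 Gb, limits what its group can show for low genes such as Rims3.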
